A study of Homo sapiens with 10 samples.

Results

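HER2 peaks at the promoters of protein-coding genes are described here, in 4 peak lists from SKBR3 and BT474 breast cancer cells. A peak was counted as a promoter peak when its midpoint lay from 0 to 1 kb upstream of the start of a protein-coding transcript. Of 43001 HER2 peaks in the 4 lists, 760 met this rule. They were 41 of 2596 peaks in SKBR3 vehicle (1.58%), 47 of 2520 in SKBR3 EGF (1.87%), 154 of 8559 in BT474 vehicle (1.80%) and 518 of 29326 in BT474 EGF (1.77%). The 95% Wilson intervals of these shares, which cover counting error only, were 1.17% to 2.14%, 1.41% to 2.47%, 1.54% to 2.10% and 1.62% to 1.92%, all overlapping. The promoter windows of the 78569 start sites together covered 1.40% of the sequenced genome, which lies inside the SKBR3 vehicle interval and just below the other 3.

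The study mapped HER2 by ChIP-exo, in which an exonuclease trims the precipitated DNA up to the bound protein. SKBR3 and BT474 are established human breast cancer lines with an amplified HER2 gene. Asynchronous cells, not deprived of serum, received water as vehicle or 100 ng/ml of EGF for 3 hours. HER2 was precipitated with antibody sc-284, from different lots in the 2 lines, and the monomethylated histone mark H3K4me1 with antibody ab8895 in 2 replicates per line. The labels call the H3K4me1 cells asynchronous, whereas the study's text describes EGF treatment, so their treatment is uncertain. The input samples of both lines were not analysed here. Each HER2 condition had 1 list, so no test compares treatments, and a difference between lists cannot be told apart from a difference between libraries, depths or antibody lots. The total score of a peak has no stated scale and was compared within a list only. For H3K4me1, each replicate is given beside all start sites in the same replicate. With 2 replicates per line, the spread is given and no test was made.

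HER2, encoded by ERBB2, is a receptor tyrosine kinase of the cell membrane that has no known ligand and signals in dimers with EGFR, HER3 or HER4. EGF is a ligand of EGFR. Full-length HER2 has also been described in the nucleus, where it was reported at single promoters. Promoters of active genes are marked by H3K4me3 at the start site, and H3K4me1 lies in the flanks of such promoters and at enhancers.

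Some of the promoter sites found in 3 or 4 lists were runs of GA and CA or of CT and TG dinucleotides. By the measure used below, at least 80% of purines on one strand, 9 of the 31 genes in 3 or 4 lists had a purine-rich site in at least 1 list, and 13 had 1 of the short motifs described next. Each gene could meet this in 3 or 4 lists, so these counts are not shares of peaks. By peak, 4 of 6 sites in 3 or 4 lists were purine-rich in SKBR3 vehicle, beside 16 of all 41 promoter peaks. In SKBR3 EGF 7 of 30 were, beside 12 of 47. The BT474 counts were 6 of 28 in vehicle, beside 14 of 154, and 6 of 32 in EGF, beside 62 of 518. The sequences shown are windows of 101 bases around the midpoint of the peak, in GRCh37 (hg19) on the plus strand, from 5′ to 3′. Capitals mark the core that the study's motif search reported, CGTNTGC, or the 6 bases ACGAGA, each on either strand. ACGAGA are the first 6 of the last 7 bases of the public P7 primer of Illumina libraries, and the core also lies in that primer, in reverse complement as GCATACG. The study's text does not print the primers that were used. Windows that overlap an exon are not shown. The first set shows stretches of purines (A and G), which made up 82.2% of the ACTN2, 79.2% of the NECTIN2, 87.1% of the ZNF358 and 79.2% of the TNFSF9 window, so that NECTIN2 and TNFSF9 fall just short of that measure here.
ACTN2 chr1:236849264-236849364: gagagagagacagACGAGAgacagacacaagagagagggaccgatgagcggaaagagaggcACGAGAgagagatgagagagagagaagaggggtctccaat
NECTIN2 chr19:45348434-45348534: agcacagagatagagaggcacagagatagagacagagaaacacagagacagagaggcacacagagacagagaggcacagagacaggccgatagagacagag
ZNF358 chr19:7580663-7580763: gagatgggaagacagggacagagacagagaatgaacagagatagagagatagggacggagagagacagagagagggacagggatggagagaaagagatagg
TNFSF9 chr19:6530026-6530126: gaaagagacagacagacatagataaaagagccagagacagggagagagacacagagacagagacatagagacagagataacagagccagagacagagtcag
The second set shows the same on the other strand, with pyrimidines in the plus strand.
GATA1 chrX:48643975-48644075: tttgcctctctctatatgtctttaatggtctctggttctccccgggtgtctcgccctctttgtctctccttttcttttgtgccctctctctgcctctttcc
ZFP36 chr19:39896914-39897014: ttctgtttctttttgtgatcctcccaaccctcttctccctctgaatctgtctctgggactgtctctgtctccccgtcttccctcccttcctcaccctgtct
BCL6 was a promoter site of both EGF lists and of neither vehicle list, and it opens with a GA repeat.
BCL6 chr3:187455137-187455237: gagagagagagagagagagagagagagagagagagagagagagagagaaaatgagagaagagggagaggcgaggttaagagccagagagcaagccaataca
The third set is shown because it holds the core or the 6 bases.
BARX1 chr9:96717937-96718037: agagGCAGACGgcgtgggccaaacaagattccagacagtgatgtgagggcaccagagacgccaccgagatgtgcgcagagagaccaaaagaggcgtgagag
LGR6 chr1:202183151-202183251: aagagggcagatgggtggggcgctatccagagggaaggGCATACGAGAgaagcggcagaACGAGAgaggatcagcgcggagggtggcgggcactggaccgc
PMVK chr1:154909731-154909831: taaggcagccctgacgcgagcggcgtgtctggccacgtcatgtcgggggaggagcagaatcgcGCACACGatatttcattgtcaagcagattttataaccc
PCDHB5 chr5:140514146-140514246: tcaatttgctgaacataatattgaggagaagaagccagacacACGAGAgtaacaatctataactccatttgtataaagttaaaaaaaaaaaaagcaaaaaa
WIPF3 chr7:29845519-29845619: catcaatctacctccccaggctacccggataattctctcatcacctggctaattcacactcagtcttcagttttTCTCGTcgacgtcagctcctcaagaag
The last pair, shown for contrast, has neither feature in the windows shown and is not rich in purines. In BT474 vehicle, where the midpoint differs by a few bases, the CREBBP window did hold the 6 bases.
CREBBP chr16:3832962-3833062: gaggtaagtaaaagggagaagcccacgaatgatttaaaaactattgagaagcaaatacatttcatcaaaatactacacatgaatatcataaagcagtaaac
NRXN3 chr14:78744426-78744526: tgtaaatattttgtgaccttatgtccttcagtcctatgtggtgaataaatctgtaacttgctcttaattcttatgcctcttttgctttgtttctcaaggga
In LGR6 the core and the 6 bases run together as GCATACGAGA, and the 6 bases occur a second time.

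The sequence content of the promoter peaks differed from that of promoters in general. A window was called purine-rich when A and G made up at least 80% of the bases on one of its strands, a measure chosen after these sequences had been seen. It was met by 16 of 41 promoter peaks in SKBR3 vehicle (39.0%), beside 11.6% of all peaks of that list. In SKBR3 EGF it was met by 12 of 47 (25.5%), beside 11.6% of all peaks. The BT474 shares were lower, at 14 of 154 in vehicle (9.09%, all peaks 3.77%) and 62 of 518 in EGF (12.0%, all peaks 5.28%). Among 706495 windows of 101 bases tiled over all promoters, 0.519% were purine-rich. Thus in each list the promoter peaks held the largest share, the peaks as a whole a smaller one, and promoters at large almost none. The 95% Wilson intervals of the promoter peaks (25.7% to 54.3%, 15.3% to 39.5%, 5.49% to 14.7% and 9.45% to 15.0%) lay above the share of all peaks in every list. As the measure was chosen on these same peaks, and the lists share some sites, the intervals are no test of the difference. The purines lay on the strand of the gene at 8 of the 16 sites in SKBR3 vehicle, 2 of 12 in SKBR3 EGF, 8 of 14 in BT474 vehicle and 29 of 62 in BT474 EGF. SNX16, which encodes a sorting nexin of endosomes, had the richest sites among the shared genes, with at least 95% purines in each of the 4 lists. The shorter repeat GAGAGA was found at 51.2%, 38.3%, 21.4% and 33.6% of the promoter peaks of the lists in the same order, against 39.8%, 28.1%, 17.0% and 23.8% of all peaks and 7.68% of tiles.

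The 6 bases ACGAGA occurred within 50 bp of the midpoint at 4 of 41 promoter peaks in SKBR3 vehicle (9.76%, all peaks 6.05%) and at 9 of 47 in SKBR3 EGF (19.1%, all peaks 18.7%). In BT474 vehicle they occurred at 40 of 154 (26.0%, all peaks 17.8%) and in BT474 EGF at 105 of 518 (20.3%, all peaks 16.3%). Of the promoter tiles, 1.43% held them. All 7 bases, ACGAGAT, were found at 0 of 41 promoter peaks in SKBR3 vehicle (all peaks 1.46%), 1 of 47 in SKBR3 EGF (all peaks 7.14%), 16 of 154 in BT474 vehicle (all peaks 7.51%) and 38 of 518 in BT474 EGF (all peaks 5.45%), against 0.272% of tiles. AGR2, a luminal disulfide isomerase whose promoter peak had the second highest score in BT474 vehicle, was one of the 16. The core CGTNTGC was no more frequent at promoter peaks than in the lists as a whole. It was found at 1 of 41 (2.44%, all peaks 3.47%), 3 of 47 (6.38%, all peaks 11.9%), 11 of 154 (7.14%, all peaks 12.0%) and 37 of 518 (7.14%, all peaks 7.49%) promoter peaks in the same order of lists, and in 2.26% of tiles. The 3 SKBR3 EGF sites with the core, at BARX1, LGR6 and PMVK, had scores of 24, 30 and 41 in a list whose promoter peaks without the core had a median of 151.25. The BT474 lists, with more such sites, showed no such gap. Their medians with and without the core were 59.5 and 54 in BT474 EGF, and 63 and 67.5 in BT474 vehicle. The 1 site in SKBR3 vehicle scored 25, against a median of 36.25. The core read in the direction of the gene at 16 BT474 EGF sites and against it at 21. A purine-rich window, the 6 bases or the core was present at 18 of 41, 21 of 47, 57 of 154 and 185 of 518 promoter peaks, beside 19.6%, 36.7%, 29.7% and 26.9% of all peaks of these lists and 4.14% of tiles. The promoter shares were 43.9% in SKBR3 vehicle, 44.7% in SKBR3 EGF and 35.7% in BT474 EGF.

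**Figure D1:**
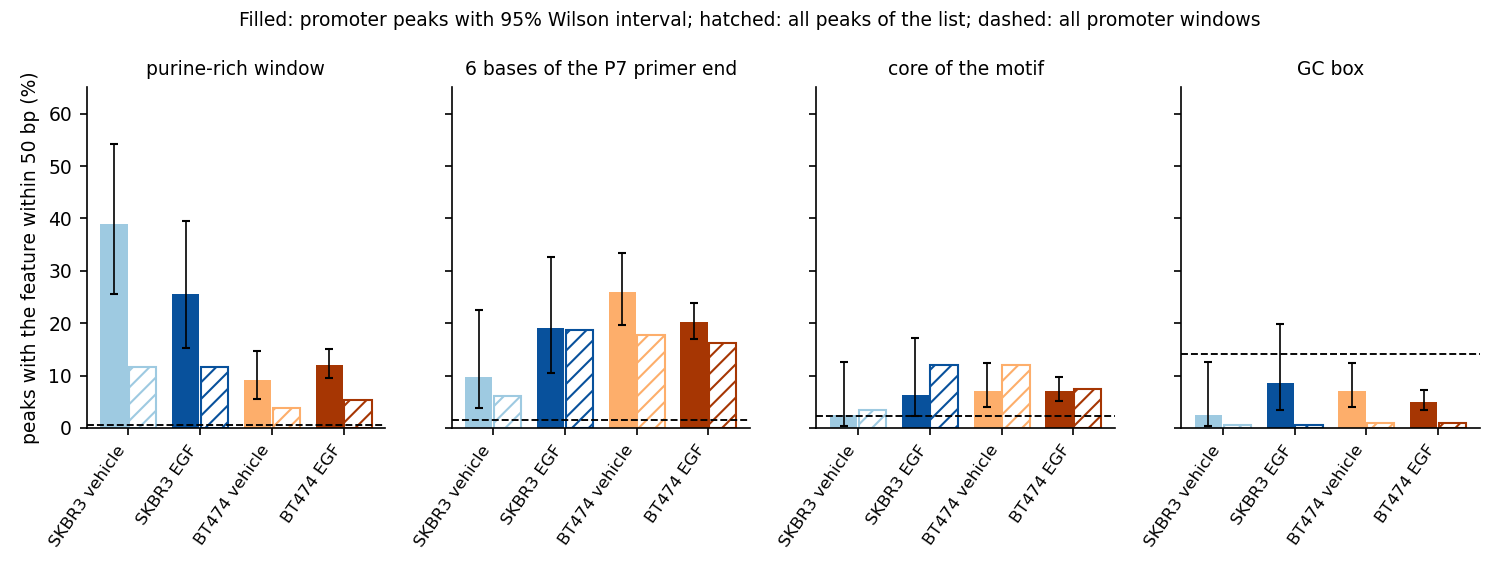
Share of peaks with each feature in the 101 bases around the midpoint, for purine-rich windows, the 6 primer bases, the core and the GC box, by list. Filled bars are promoter peaks with 95% Wilson intervals, hatched bars all peaks of the list and dashed lines all promoter tiles; purine-rich windows reached 39.0% of the SKBR3 vehicle promoter peaks against 0.519% of tiles, while GC boxes stayed below the 14.1% of tiles in all 4 lists.

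Of the elements typical of promoters, the GC box was less frequent at the promoter peaks than in promoters at large and more frequent than in the lists as a whole. It reads GGGCGG, is the site of SP1 and was present at 1 of 41, 4 of 47, 11 of 154 and 26 of 518 promoter peaks (2.44%, 8.51%, 7.14% and 5.02%), against 14.1% of tiles and 0.578%, 0.635%, 0.946% and 0.907% of all peaks. The SKBR3 vehicle interval held the share of all peaks and the SKBR3 EGF interval that of tiles, since they rest on 1 and 4 peaks. The CCAAT box, bound by NF-Y, was present at 12.2%, 10.6%, 15.6% and 11.0%, against 12.1% of tiles and 14.1%, 12.7%, 14.9% and 14.3% of all peaks. The TATA box, TATAAA, was present at 2.44%, 4.26%, 4.55% and 3.28%, against 5.12% of tiles and 5.59%, 7.30%, 9.76% and 9.08% of all peaks. For TATA the intervals of BT474 vehicle (2.22% to 9.08%) and BT474 EGF (2.06% to 5.19%) lay below the share of all peaks. For CCAAT only that of BT474 EGF (8.59% to 14.0%) did. The AP-1 site TGANTCA was found at 1, 3, 3 and 10 promoter peaks and the STAT site TTCNNNGAA at 0, 3, 5 and 12. For AP-1 these were 2.44%, 6.38%, 1.95% and 1.93%, against 2.19% of tiles, and for STAT 0, 6.38%, 3.25% and 2.32%, against 2.57%. Of all peaks, 2.16%, 2.06%, 2.38% and 2.15% held the AP-1 site and 2.16%, 2.22%, 2.84% and 2.66% the STAT site. The SKBR3 EGF shares were the highest of both sites and rest on 3 peaks each, with an interval of 2.19% to 17.2%. A promoter was called CpG-rich when its 1 kb had at least 55% G and C and an observed to expected CpG ratio of at least 0.6. Of all start sites, 29.0% had such a promoter, beside 9 of 41 (22.0%) in SKBR3 vehicle, 11 of 47 (23.4%) in SKBR3 EGF, 35 of 154 (22.7%) in BT474 vehicle and 105 of 518 (20.3%) in BT474 EGF. Only the BT474 EGF interval, 17.0% to 23.9%, lay wholly below 29.0%, as those of the smaller lists were wide. The windows had a median GC content of 48.5% to 50.5%, between the 39.6% to 43.6% of all peaks and the 52.5% of tiles.

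The promoter peaks were spread over the whole kilobase and did not crowd at the start site. Their median distance was 545 bp in SKBR3 vehicle, 512 bp in SKBR3 EGF, 502 bp in BT474 vehicle and 490.5 bp in BT474 EGF. Within 100 bp of a start site lay 1, 3, 14 and 35 of them. The site at MRPS17, a protein of the mitochondrial ribosome, was among the closest, at 93 bp in SKBR3 EGF, 11 bp in BT474 vehicle and 14 bp in BT474 EGF, and that at LGR6, an R-spondin receptor, lay at 82, 29 and 55 bp. By contrast the site at NECTIN2, a cell adhesion protein, lay 902 to 978 bp upstream in the 4 lists. Many of the start sites were alternative ones. At 23 of 41, 25 of 47, 73 of 154 and 261 of 518 peaks, a canonical start lay within 1 kb downstream. Of all start sites, 24.8% were canonical. This is a share of starts and not of peaks, and a peak can have several starts, so the shares were not compared. The midpoint lay in an intron of an annotated gene at 25, 27, 83 and 263 peaks, between genes at 12, 13, 38 and 148 and in an exon at 4, 7, 33 and 107.

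Peak density was modestly higher around start sites than over the genome in BT474, and most so just downstream of them. Each midpoint was assigned to its nearest start site. The first kilobase upstream held 12.3 peaks per Mb in BT474 EGF (exact Poisson interval 11.1 to 13.5) against a mean of 10.3 over the genome, and the first kilobase downstream held 13.8 (12.7 to 15.1). In BT474 vehicle the upstream value was 3.56 (2.97 to 4.25) against a mean of 2.99, which lies inside the interval, and the downstream value 4.33 (3.69 to 5.06). In the SKBR3 lists the upstream values of 0.884 in vehicle (0.601 to 1.25) and 1.08 in EGF (0.767 to 1.49) could not be distinguished from the means of 0.908 and 0.882 at these counts. Downstream the SKBR3 values were 1.00 in vehicle (0.705 to 1.38) and 1.25 in EGF (0.912 to 1.66), the latter interval above the mean. In each list the density was thus higher in the first kilobase of the genes than in their promoters, with overlapping intervals.

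**Figure D2:**
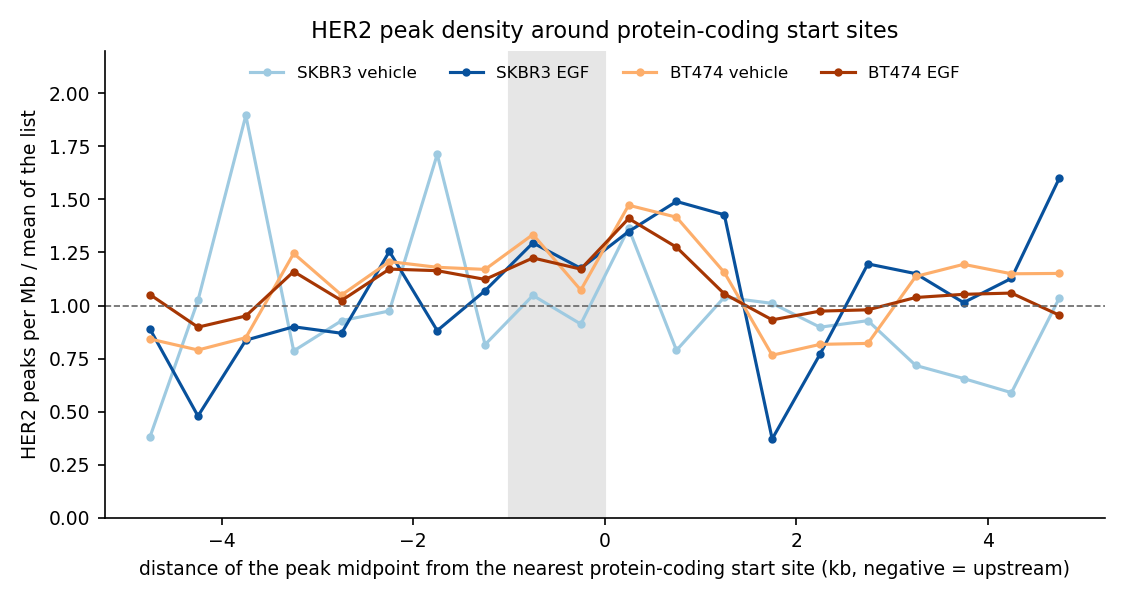
HER2 peaks per Mb in bins of 500 bp by distance from the nearest protein-coding start site, divided by the mean of the list, with the promoter window in grey. The BT474 lists peaked just downstream of the start site, and the SKBR3 lists, with 41 and 47 promoter peaks, varied from bin to bin.

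Promoter peaks had about the same scores as other peaks of their list. Their median was 35.5 against 35 in SKBR3 vehicle, 147 against 129 in SKBR3 EGF, 67 against 64.5 in BT474 vehicle and 54.25 against 56 in BT474 EGF. They made up 7, 4, 10 and 50 of the peaks in the top 10% of their lists by score. A few sites stood far above these medians. The site at SNX16 scored 363.5 in SKBR3 vehicle and 2214 in SKBR3 EGF, ranks 4 and 14 of all peaks. It scored 163 in BT474 vehicle and 165.5 in BT474 EGF, ranks 926 and 2976. Because the lists differ in length, percentiles within each list are given too. They were 99.9, 99.5, 89.2 and 89.9 in the same order. In SKBR3 vehicle the next sites were those of MC3R, a melanocortin receptor (98), FCMR, the Fc receptor of IgM (72), TGFB2, a growth factor of the TGF-beta family (68.5), and CFTR, a chloride channel (67). In SKBR3 EGF they were OCA2, a melanosome protein (467), CDC27, a subunit of the anaphase-promoting complex (387), NECTIN2 (338) and CREBBP, a histone acetyltransferase (289.5). The highest BT474 vehicle sites were PMVK, an enzyme of the mevalonate pathway (435.5), AGR2 (383), a shared site of KIAA0319L and NCDN (286.5), OCA2 (274) and KDM3A, a histone demethylase (256.5). In BT474 EGF they were OCA2 (612), NECTIN2 (596.5), TNFSF9, the ligand of 4-1BB (447), ACTN2, an actinin of muscle (406), and RAB11FIP4, a Rab11 effector (404.5).

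The promoter peaks of SKBR3 EGF were nearly all found in BT474 EGF, and those of SKBR3 vehicle were not. Of the 47 SKBR3 EGF promoter peaks, 43 (91.5%) overlapped a BT474 EGF peak, beside 84.7% of all SKBR3 EGF peaks, and 28 (59.6%) overlapped a BT474 vehicle peak, beside 62.2%. With SKBR3 vehicle they shared 5 (10.6%), beside 13.3%. Of the 41 SKBR3 vehicle promoter peaks, 5 (12.2%) overlapped an SKBR3 EGF peak, beside 13.0% of all peaks, 5 (12.2%) a BT474 vehicle peak, beside 16.4%, and 23 (56.1%) a BT474 EGF peak, beside 43.1%. The promoter shares were thus near those of all peaks in each of these pairs, and the 95% interval of each held the share of all peaks. From BT474 vehicle, 132 of 154 (85.7%) overlapped a BT474 EGF peak, beside 91.2%, which lies just above its interval of 79.3% to 90.4%. A further comparison found 27 (17.5%) with an SKBR3 EGF peak, beside 18.3%, and 5 (3.25%) with an SKBR3 vehicle peak, beside 4.99%. From BT474 EGF, 135 of 518 (26.1%) overlapped a BT474 vehicle peak, beside 26.5%, 43 (8.30%) an SKBR3 EGF peak, beside 7.19%, and 24 (4.63%) an SKBR3 vehicle peak, beside 3.81%. The lists differ in length, so each share is given for the list it starts from. Shared promoter sites had the higher median scores. The same comparison was not made for all peaks of the lists, so this is not shown to be particular to promoters. In BT474 EGF the median was 151.5 at the 43 sites found in SKBR3 EGF and 51.5 at the others, and in BT474 vehicle it was 68 at the 132 sites found after EGF and 46.25 at the others.

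In all, 562 of 19794 protein-coding genes (2.84%) had a promoter peak in any list, of which 395 had one in 1 list, 136 in 2, 28 in 3 and 3 in 4. BT474 EGF alone accounted for 350. The genes in 4 lists were ACTN2, NECTIN2 and SNX16. ACTN2 scored 51.5, 181, 102.5 and 406 in SKBR3 vehicle, SKBR3 EGF, BT474 vehicle and BT474 EGF, and NECTIN2 30.5, 338, 239 and 596.5. ACTN2 ranked 452 of 2596 peaks in SKBR3 vehicle and 372 of 29326 in BT474 EGF, and NECTIN2 1699 and 105, ranks that cannot be set against each other because the lists differ in length. The 23 genes found in SKBR3 EGF and both BT474 lists included the transcription factors OSR2, BARX1, PHOX2A and POU2F2, the acetyltransferase CREBBP and the DNA repair protein TP53BP1. Others were MRPS17, PMVK, PPCS of coenzyme A synthesis, VPS16 of endosome fusion, and NRXN3 and PCDHB5 of cell adhesion in neurons. Within SKBR3 EGF these ranged from MRPS17 at a score of 10 to OCA2 at 467. GATA1, a transcription factor of red blood cells, and ESPNL were found in both SKBR3 lists and BT474 EGF. DDR1, a collagen receptor kinase, KIAA0319L and NCDN were found in SKBR3 vehicle and both BT474 lists. At 30 of the 31 genes the lists had peaks that overlapped each other. DDR1 was the exception, where the SKBR3 vehicle peak lay at chr6:30849500-30849715 and the BT474 EGF peak at chr6:30853802-30854070, upstream of different starts. In BT474 EGF, 15 of the 31 lay in the top 10% of the list, a list whose length itself can place shared sites higher. In SKBR3 EGF 3 of 28 did, and in BT474 vehicle 5 of 29. Chromosome 19 held 7 of the 31.

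**Figure D3:**
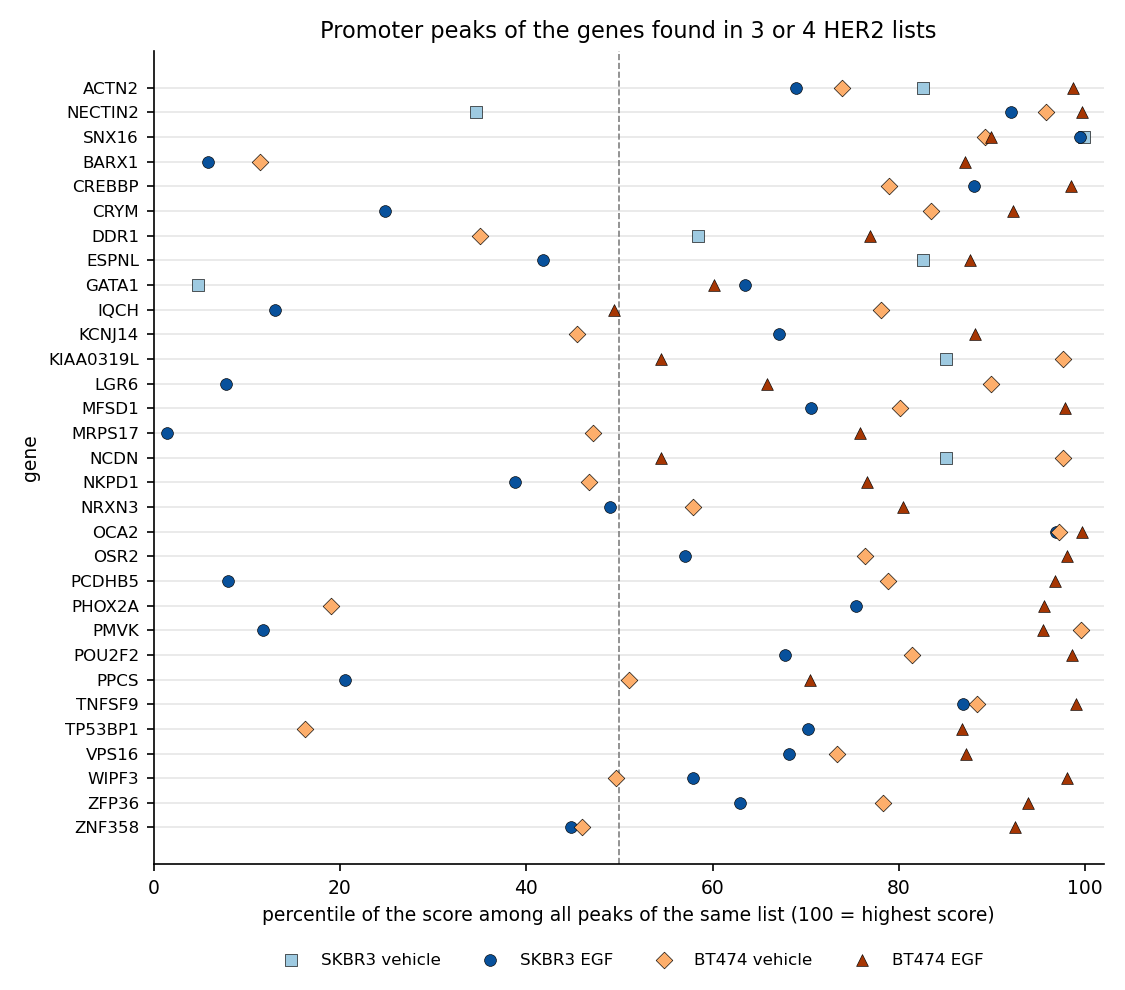
Percentile of the promoter peak's score among all peaks of the same list, for the 31 genes with a promoter peak in 3 or 4 lists. Points further right are nearer the top of their list; the BT474 EGF points range from 49.5 to 99.7 with a median of 89.9, and the SKBR3 EGF points from 1.47 to 99.5 with a median of 60.4.

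Chromosome 19 carried more promoter peaks than its share of start sites. It held 11 of 47 in SKBR3 EGF (23.4%), 6 of 41 in SKBR3 vehicle (14.6%), 19 of 154 in BT474 vehicle (12.3%) and 87 of 518 in BT474 EGF (16.8%). The same chromosome had 7.28% of the start sites and 2.48% to 3.33% of all peaks of the lists. Chromosome 17, which carries the amplified ERBB2 locus, had 6.44% of the start sites. It held 0 promoter peaks in SKBR3 vehicle, 1 in SKBR3 EGF (2.13%), 8 in BT474 vehicle (5.19%) and 21 in BT474 EGF (4.05%). In the same order of lists it held 1.89%, 2.86%, 2.21% and 2.30% of all peaks. Purine-rich sites made up 15 of the 87 promoter peaks on chromosome 19 in BT474 EGF and 47 of the 431 elsewhere, and 8 of 19 against 6 of 135 in BT474 vehicle. In SKBR3 EGF they were 3 of 11 against 9 of 36, a like share, and in SKBR3 vehicle 3 of 6 against 13 of 35.

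Promoter peaks in both EGF lists and in neither vehicle list were found at 15 genes, a description that no replicate backs. As many as 17 genes had one in SKBR3 vehicle and BT474 EGF and in neither other list. Counted by peak, 13 of 47 SKBR3 EGF promoter peaks overlapped a BT474 EGF peak and none of either vehicle list (27.7%, interval 16.9% to 41.8%), beside 20.5% of all SKBR3 EGF peaks. Likewise 17 of 41 SKBR3 vehicle promoter peaks overlapped a peak of BT474 EGF alone (41.5%, interval 27.8% to 56.6%), beside 23.9% of all SKBR3 vehicle peaks. The highest by SKBR3 EGF score were COL6A1, a chain of collagen VI, at 267.5 in SKBR3 EGF and 261.5 in BT474 EGF. HK1, the first enzyme of glycolysis, scored 221.5 and 106.5, and BCL6, a transcriptional repressor of germinal centre B cells, 214 and 250. PRKAG2, a regulatory subunit of AMP-activated kinase, scored 197.5 and 204.5, GRM6, a glutamate receptor of the retina, 191 and 74, and LRFN3, a synaptic adhesion protein, 189 and 175. CDC25C, the phosphatase that activates CDK1 at mitosis, scored 153 and 39, and ING1, a reader of H3K4me3, 143 and 45.5. FBLL1 had 90.5 and 125.5, and AC138517.1 had 149.5 and 132. None of the 15 was in the top 10% of SKBR3 EGF, and 5 were in that of BT474 EGF. Purine-rich windows were present in at least 1 list at 5 of the 15, beside 12 of all 47 promoter peaks in SKBR3 EGF and 62 of 518 in BT474 EGF. At COL6A1 and EPN1, 2 of the 15, a BT474 vehicle peak overlapped the site as well, with its midpoint outside the promoter window, so absence from the vehicle lists refers to the rule and not to the region.

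None of the 4 classes tied to HER2 signalling or luminal identity had a share distinguishable from that of all genes. Of 76 genes of the ERBB pathway, 2 had a promoter peak in any list (2.63%, interval 0.725% to 9.10%), beside 2.84% of all genes. ERBB2, EGFR and ERBB3 had none. Of 9 genes described as targets of nuclear HER2 or EGFR, among them CCND1, PTGS2 and MYC, 0 had a promoter peak, which for a class of this size allows up to 29.9%. Of 35 immediate early genes 1 had one, ZFP36, which degrades the mRNA of cytokines, at 162 in SKBR3 EGF, 114.5 in BT474 vehicle and 217 in BT474 EGF. ZFP36 had no promoter peak in SKBR3 vehicle, but had one in BT474 with and without EGF. Of 15 luminal transcription factors, such as ESR1, FOXA1 and GATA3, 0 had a promoter peak.

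Among the larger classes the shares lay near that of all genes, with ion channels above it and olfactory receptors and keratins below. Promoter peaks were found at 15 of 242 ion channel genes (6.20%, interval 3.79% to 9.97%), of which 14 were in BT474 EGF. KCNJ14, an inwardly rectifying potassium channel, was in 3 lists at 175 in SKBR3 EGF, 60 in BT474 vehicle and 151.5 in BT474 EGF. KCNA7, a voltage-gated potassium channel, was at 43.5 in SKBR3 vehicle and 23 in BT474 EGF. CHRNA7, a nicotinic receptor, was at 114.5 in BT474 EGF alone. Only 4 of 391 olfactory receptor genes had a promoter peak (1.02%, 0.399% to 2.60%), OR2AT4 with the highest score, 392.5 in BT474 EGF. Of 149 keratins and keratin-associated proteins 0 had one, which allows up to 2.51%. The 16 protein kinases of 432 (3.70%, 2.29% to 5.93%) were all in BT474 EGF and included DDR1 and RPS6KA1, a kinase downstream of ERK, at 152.5. The classes overlap in part, and the intervals are not corrected for their number. A gene with more annotated starts has more promoter windows, and the class shares were not adjusted for the number of starts.

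**Figure D4:**
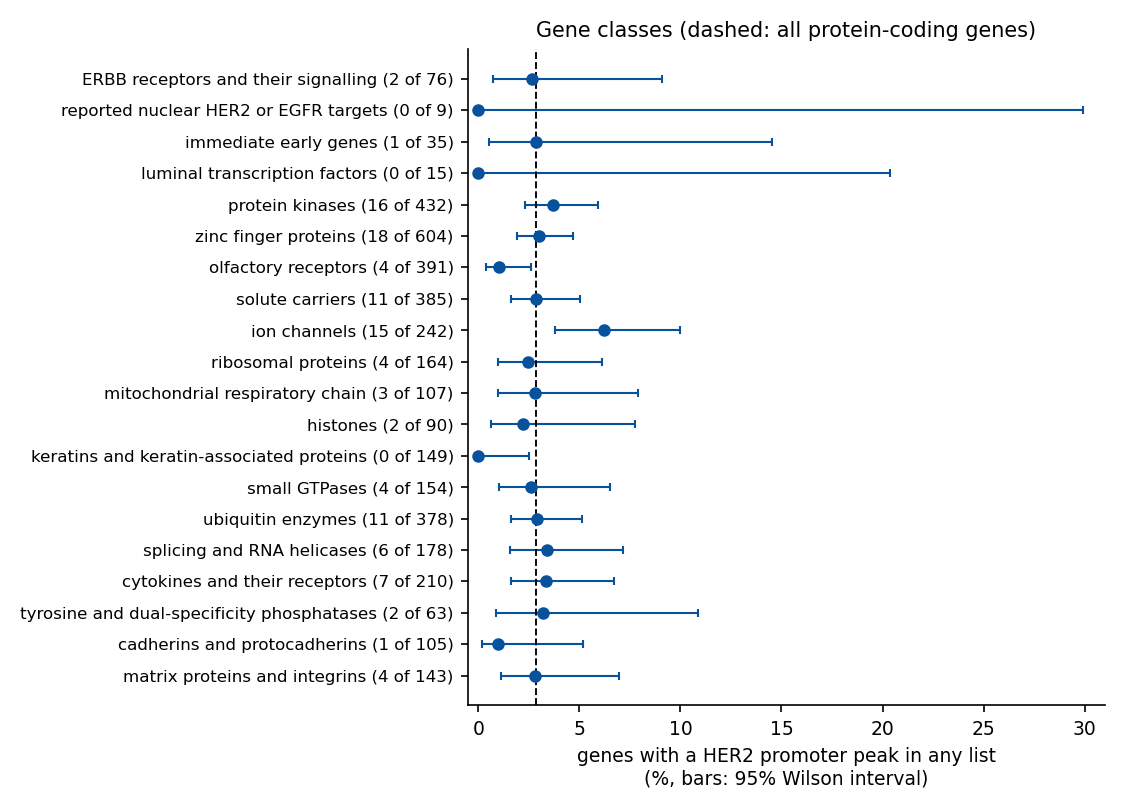
Share of the genes of each class with a HER2 promoter peak in any list, with 95% Wilson intervals and the number of genes of the class in brackets. The dashed line marks the 2.84% of all protein-coding genes; ion channels lie above it at 6.20%, and olfactory receptors at 1.02% and keratins at 0 lie below.

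Other classes gave similar shares with few genes each. Zinc finger proteins numbered 18 of 604, with ZNF358 in 3 lists and ZNF841 at 195.5 in BT474 EGF. Solute carriers numbered 11 of 385, led by SLCO2B1 at 161.5 in BT474 EGF. The ubiquitin enzymes numbered 11 of 378, led by RNF13, a ligase of endosomes, at 306.5. Cytokines and their receptors numbered 7 of 210, with TNFSF9 in 3 lists and CSF2RB and IL33 at 83.5 and 56.5 in BT474 EGF alone. Splicing factors numbered 6 of 178, led by SRSF7 at 362. Ribosomal proteins (4 of 164), the respiratory chain (3 of 107, with NDUFV1 in both BT474 lists), histones (2 of 90), genes matched as small GTPases by symbol (4 of 154, of which RAB11FIP4 is an effector and no GTPase), phosphatases (2 of 63), cadherins (1 of 105, PCDHB5) and the matrix (4 of 143, COL6A1 among them) had shares between 0.952% and 3.17%. These classes could not be told apart from the 2.84% of all genes, which lay inside each of their intervals.

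H3K4me1 flanked the promoter peaks about as often as other promoters. An island of the same line was sought from 1 to 5 kb to either side of the start site. In SKBR3, 59.4% and 60.0% of all start sites had one in the replicates, and 25 of 41 SKBR3 vehicle promoter peaks (61.0% in both) and 24 and 25 of 47 SKBR3 EGF promoter peaks (52.1% ± 1.50, SD, n = 2) did. In BT474, 71.3% and 69.1% of all start sites had one, beside 73.1% ± 2.30 of the BT474 vehicle and 67.9% ± 3.69 of the BT474 EGF promoter peaks. The SKBR3 EGF share was the farthest from that of all start sites, and lower in both replicates. The difference lay upstream, where the flank held an island at 29.8% ± 3.01 of the SKBR3 EGF promoter peaks and at 43.1% ± 0.714 of all start sites, whereas the downstream flank did so at 47.9% ± 1.50 and 48.6% ± 0.427. At 2 kb upstream, a position picked from the profile after its values were seen, 8.51% of the SKBR3 EGF promoter peaks lay in an island in each replicate, against 27.1% and 28.5% of all start sites. With 47 peaks the counting interval of the upstream flank share is wide. It was 20.4% to 46.2% in replicate 1, which held the 42.6% of all start sites. In replicate 2 it was 16.9% to 41.8%, below their 43.6%. In the islands of BT474 the upstream flank of the same SKBR3 EGF promoter peaks had 33.0% ± 1.50, against 51.4% ± 1.85 of all start sites. These differences were not tested.

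Within the promoter itself, 31.5% and 33.6% of all start sites held an island in the SKBR3 replicates and 45.0% and 42.3% in those of BT474. The promoter peaks did so at 39.0% ± 6.90 in SKBR3 vehicle, 23.4% in both replicates in SKBR3 EGF, 48.1% ± 0.918 in BT474 vehicle and 43.7% ± 1.77 in BT474 EGF. The SKBR3 vehicle value differed from that of all start sites by less than the spread between its replicates. At the start site, where all promoters show a dip, 23.3% ± 0.137 of the BT474 EGF promoter peaks lay in an island, against 19.6% ± 0.904 of all start sites. The counting interval in replicate 1, 19.7% to 27.0%, held the 20.2% of all start sites. In replicate 2 it was 19.9% to 27.2%, above their 18.9%. The ± values in this paragraph are SDs between replicates scored on the same peaks. They cover no counting error, and the differences were not tested. CpG-rich promoters were flanked more often than others in each list, as among all start sites. In BT474 EGF the replicates gave 81.9% and 78.1% of 105 CpG-rich and 64.8% ± 3.94 of 413 other promoter peaks, and among all start sites 85.5% ± 1.58 and 64.1% ± 1.49. In SKBR3 EGF they were 72.7% of 11 and 45.8% ± 1.96 of 36. Purine-rich sites were flanked less often than the other promoter peaks in BT474 EGF, at 53.2% ± 6.84 of 62 against 69.8% ± 3.26 of 456, and in SKBR3 vehicle, at 53.1% ± 4.42 of 16 against 66.0% ± 2.83 of 25. In BT474 vehicle the shares were 67.9% ± 5.05 of 14 and 73.6% ± 2.02 of the others, and in SKBR3 EGF they ran the other way, at 54.2% ± 5.89 of 12 against 51.4% in both replicates.

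**Figure D5:**
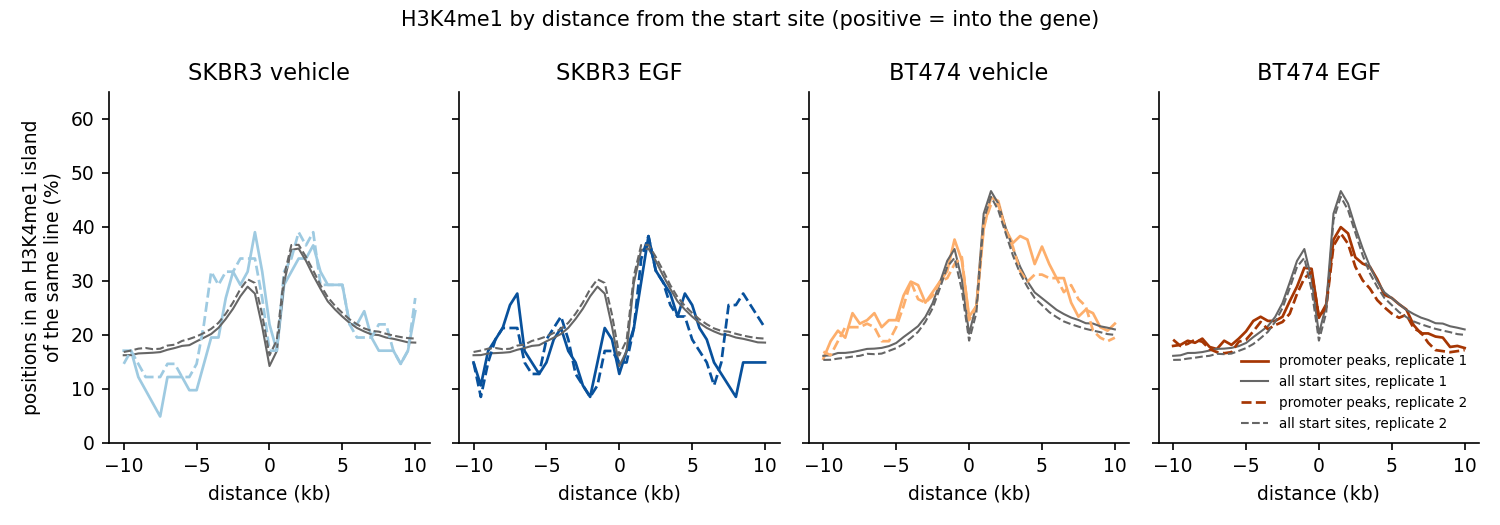
Share of positions inside an H3K4me1 island of the same line, by distance from the start site, for the promoter peaks of each list (coloured) and all protein-coding start sites (grey), with the replicates as solid and dashed lines. All start sites show a dip at the start, and in SKBR3 EGF the promoter peaks lie below them from -3500 to -500 bp. At 2 kb upstream they have 8.51% in each replicate, against 27.1% and 28.5% of all start sites. Farther upstream they lie on either side of all start sites, with 27.7% and 21.3% at -7000 bp against 17.2% and 18.0%.

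The shared genes differed widely in H3K4me1, as did start sites in general. Of the 31 genes in 3 or 4 lists, 16 had an island within 5 kb of the start site in all 4 replicates and 8 in none. Of all start sites, 48.9% had an island in either flank in all 4 replicates and 20.5% in none. The flanks leave out the sequence next to the start site, so these measures differ, and no test compared them. ACTN2 and TNFSF9 had no island in any of the 4 replicates. Levels are given as RPM, the reads of islands within 5 kb scaled to the library's reads in all islands. NECTIN2 had 23.9 and 23.5 RPM in the SKBR3 replicates and 20.7 and 21.0 in those of BT474. SNX16 had 6.65 and 6.20 in SKBR3 and 15.4 and 17.6 in BT474, and its HER2 peak was found in both lines. At CREBBP the SKBR3 replicates had no island, and BT474 had 24.2 and 23.3. AGR2, whose promoter peak was in the BT474 lists alone, had 120 and 111 in SKBR3 and 158 and 161 in BT474. ZFP36 had 13.3 and 12.9 in SKBR3 and 20.0 and 22.0 in BT474. The replicates differed by less than the lines did at SNX16, CREBBP, AGR2 and ZFP36.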

How the data were processed

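HER2 peak positions and scores were used as deposited. The study's methods describe the removal of reads in blacklisted and greylisted regions, but whether the deposited lists carry this filter was not established. The scale of the score is not given in the sources used here. For H3K4me1, the deposited islands carry a count of reads for each island, from SICER. The submitters' processing notes list BWA 0.5.9, MACS 1.4.1 and SICER 1.1, whereas the study's methods name other aligner and peak caller software, so the tools of each file are uncertain. Start sites were those of protein-coding transcripts of protein-coding genes in the GENCODE annotation lifted to GRCh37, the build of the files. The midpoint stood for the summit. Windows reached 50 bp to each side of it. Shared peaks overlapped by at least 1 bp. Intervals were 95% Wilson or exact Poisson and cover counting error only. Python 3.11.15, numpy 2.4.6, pandas 2.3.3, scipy 1.17.1 and pysam 0.24.0 were used, and assignment, overlap and motif search were tested on simulated data. Depth of the HER2 libraries was not given with the lists. The H3K4me1 islands held 15.6 M and 15.3 M reads in the SKBR3 and 18.7 M and 15.1 M in the BT474 replicates.

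Members, gene classes and lists were chosen with earlier results of these data known, and the purine, GAGAGA and ACGAGA measures and the counts of SKBR3 peaks found in BT474 EGF alone were added after the data had been seen. Genes were named when they had a promoter peak in 3 or 4 lists, were among the 5 highest scores of a list, were among the 10 highest by SKBR3 EGF score in both EGF lists alone, belonged to the ERBB, nuclear target, immediate early or luminal classes, led another class (up to 3 each), or held the core in both EGF lists. EPN1 was named for its overlap with a vehicle peak after its values were seen. Some genes and sequences that met this rule are not reported here.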

Additional observations from a re-analysis of the deposited data

Results flagged for a closer look

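EGF and vehicle lists differed in opposite directions in the 2 lines for 2 values, and in neither case was the difference tested, since each condition had 1 list. The share of promoter peaks with a purine-rich window was 13.5 percentage points lower in the EGF list than in the vehicle list of SKBR3 (EGF minus vehicle -13.5) and 2.88 points higher in BT474, so the SKBR3 difference minus the BT474 difference was -16.4. The ratio of the median score of promoter peaks to that of the other peaks was 0.125 higher with EGF in SKBR3 and lower in BT474 (-0.0700), a difference between the lines of 0.195.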

How the results depend on the processing

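A promoter window of 2 kb gave 76, 75, 269 and 910 promoter peaks in SKBR3 vehicle, SKBR3 EGF, BT474 vehicle and BT474 EGF, and the outermost start of each gene alone gave 22, 24, 78 and 260. With each list cut to the length of the shortest, BT474 vehicle had 47 and BT474 EGF 44 promoter peaks, of which 61.7% and 65.9% were shared with the other treatment. The core was present at 12.3% (BT474 vehicle) and 10.0% (BT474 EGF) of promoter peaks within 100 bp, and at 13.0% and 12.4% over the whole peak. A flank of 1 to 2 kb held H3K4me1 at 54.9%, 42.6%, 63.0% and 57.3%, and islands of at least 100 reads at 41.5%, 30.9%, 56.8% and 46.7%. Chosen after seeing the data, a purine minimum of 75% gave 40.4% in SKBR3 EGF, 18.2% in BT474 vehicle and 24.9% in BT474 EGF, and one of 85% gave 14.6%, 12.8%, 3.90% and 5.79%. These moves follow from wider or stricter windows and shorter lists. Using 1 H3K4me1 replicate gave 61.0% to 61.0%, 51.1% to 53.2%, 71.4% to 74.7% and 65.3% to 70.5%. Of the alternative values, 33, those from 1 replicate included, moved by less than 1.5 times or less than the replicate spread or counting interval. The other 31, given above, did not meet this measure. No paired analysis was possible because no result comes from a test, and each HER2 condition has 1 list. The lists of 41 and 47 promoter peaks leave wide intervals, and H3K4me1 has only 2 replicates per line.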
